A study of Mus musculus with 4 samples.

Results

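The 86 potassium channel genes described here are every symbol in the deposited matrix that begins with Kcn, apart from Kcne2, Kcnj6 and Kcnj10, out of 19090 genes measured in 10549 spots. Some code for pore-forming subunits of the voltage-gated families Kv1 (6 genes), Kv2 (2), Kv3 (4) and Kv4 (3). Others code for modifying subunits that form no channel by themselves but alter Kv2 channels (9). There are also EAG, ERG, ELK and KCNQ pore subunits (13), inward rectifiers (11) and tandem-pore leak channels (11). Calcium- or sodium-activated pores are counted together with their relative Kcnu1 (8). A further 13 code for auxiliary subunits, and 6 other symbols, among them long non-coding RNAs, are counted apart. Kcne1, Kcnj15 and Kcna3 were not analysed here. Of the 86, 56 reached a mean of 5 CPM over the sections (CPM are counts scaled to a common total per section) and entered the counts below, and 30 stayed under it, at means from 0.0532 to 4.85 CPM. Over all genes, 57.8% reached that level.

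Potassium channels let potassium leave a neuron and so bring its membrane back toward rest. Voltage-gated subunits end the action potential and set how fast a cell can fire, KCNQ and ERG channels hold back repeated firing, and inward rectifiers and leak channels set the resting potential. Neurons of each brain area carry their own mixture of these subunits, while glia, vessels and the choroid plexus, the epithelium that makes cerebrospinal fluid, express a few of them. Auxiliary subunits change gating and delivery to the membrane: Kcnab proteins accompany Kv1, Kcnip proteins accompany Kv4, and Kcnmb proteins accompany the BK channel.

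The counts came from Visium arrays, in which a tissue section lies on printed spots that each capture the RNA of several cells. There was 1 hemisphere section from each of 4 male mice aged 9 months. The 5xFAD-Dp16 mouse carried both the 5xFAD transgenes, human familial Alzheimer's disease genes driven in neurons by the Thy1 promoter, and Dp16, a duplication of the part of mouse chromosome 16 that corresponds to much of human chromosome 21. The 5xFAD mouse carried the transgenes alone, the Dp16 mouse the duplication alone, and the wild-type mouse was C57BL/6J. None of the 86 genes lies on chromosome 16 in the RefSeq annotation of GRCm38.p6, which matched 85 of them. With 1 section per genotype no difference between genotypes could be tested, and no interval below covers differences between animals or between the planes of section.

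The sections held 2347 to 2941 spots and 26049860 to 36461389 counts, with medians of 9404 to 11639 counts per spot. They share 1996 of 3164 spot barcodes, which name positions on arrays of one design. As a check of the labels, 71 measured genes from Lipi to Zbtb21 on chromosome 16 had a median log2 ratio, relative to all genes, of 0.58 in 5xFAD-Dp16 over 5xFAD and 0.54 in Dp16 over wild-type. Thy1 was at 1186 and 1449 CPM in the 5xFAD-Dp16 and 5xFAD sections, against 477 and 562 CPM in the Dp16 and wild-type sections. The 86 genes together took 64546, 52381, 59633 and 80501 counts in the 5xFAD-Dp16, 5xFAD, Dp16 and wild-type sections, or 0.177, 0.201, 0.193 and 0.234% of each total.

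Regions are named by the deposited labels, which may rest on expression, since no source used here says how they were made. Of 17 labels, 12 held at least 30 spots in each section and were compared. The label Thalamus had 1233, 1455, 922 and 1939.6 CPM of 4 thalamic markers in the 5xFAD-Dp16, 5xFAD, Dp16 and wild-type sections, and the label CNU had 903, 832, 705 and 934 CPM of 4 striatal markers. Oligodendrocyte markers were at 23264, 20596, 17904 and 23067 CPM in FB. The label VL held choroid plexus markers at 222323, 257643, 246043 and 142085 CPM. The label Hypothalamus differed widely between sections, with 5 hypothalamic peptide genes summing to 137, 13.2, 641 and 17531 CPM.

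Promoter sequences are shown for 3 genes that mark different compartments in the results below: Kcnc2 (Thalamus), Kcnk13 (FB) and Kcnj13 (VL). They are RefSeq windows on GRCm38.p6 from 250 bases before to 50 after an annotated start, 1 window for each gene. Capitals mark a GC box (GGGCGG) or a TATA box (TATAAA), searched on both strands, and these letters cannot overlap each other. The Kcnc2 window is chr10:112269767-112270066 on the plus strand, the Kcnk13 window chr12:99964249-99964548 on the plus strand and the Kcnj13 window chr1:87394680-87394979 on the minus strand.
Kcnc2: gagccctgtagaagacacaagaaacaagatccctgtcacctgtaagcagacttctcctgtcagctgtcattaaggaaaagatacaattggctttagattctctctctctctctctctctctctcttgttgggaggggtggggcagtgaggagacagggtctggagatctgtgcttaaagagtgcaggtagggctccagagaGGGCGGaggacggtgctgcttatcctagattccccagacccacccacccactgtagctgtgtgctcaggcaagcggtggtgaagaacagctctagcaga
Kcnk13: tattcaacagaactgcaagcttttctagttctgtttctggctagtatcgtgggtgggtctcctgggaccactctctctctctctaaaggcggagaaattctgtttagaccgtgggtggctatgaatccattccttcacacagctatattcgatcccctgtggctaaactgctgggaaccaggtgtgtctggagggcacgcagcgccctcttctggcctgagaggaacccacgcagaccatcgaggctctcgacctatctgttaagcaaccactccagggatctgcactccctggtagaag
Kcnj13: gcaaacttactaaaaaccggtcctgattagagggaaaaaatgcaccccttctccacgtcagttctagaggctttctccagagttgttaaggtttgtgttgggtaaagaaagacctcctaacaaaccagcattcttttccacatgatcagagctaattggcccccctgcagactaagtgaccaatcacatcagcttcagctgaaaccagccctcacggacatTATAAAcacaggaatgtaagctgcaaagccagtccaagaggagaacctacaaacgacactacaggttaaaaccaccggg
The Kcnc2 window held 1 GC box and the Kcnj13 window 1 TATA box, while neither set of letters is in the Kcnk13 window. That Kcnk13 window lies inside the annotated gene, which runs from 99963149 to 100062682. It thus belongs to an internal start, and the sequence before the first base of Kcnk13 is not shown. Promoter windows matched 61 of the 86 genes (84 windows). A GC box was in 41 of these 84 (48.8%), against 35.7% of all 32851 windows, and a TATA box was in 4 (4.76%), against 13.6%. The median GC content was 58.3% in the windows of the potassium channel genes and 52.7% in all windows.

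Nearly every potassium channel gene that was measured well had a regional pattern. For each region the summed counts of the 4 sections were set against the mean of the other 11 regions on the log2 scale, with section as a block (edgeR quasi-likelihood test, Benjamini-Hochberg adjustment over 11033 genes). A call needed an adjusted p under 0.05 and a 2-fold difference. Of the 56 genes, 52 were called in at least 1 region, against 35.4% of all genes tested. There were 90 calls of a higher and 78 of a lower level. The genes without a call were Kcnd1 and Kcnd2 (Kv4 pores), Kcns2 (a modifying subunit) and Kcnn2 (an SK channel).

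Cortical labels had many calls of a higher level: 14 of 56 genes in Cortex SSp (1.94% of all genes), 13 in Cortex AUC (1.74%), 10 in Cortex PTL (1.67%), 8 in Cortex OLF (2.61%), 7 in Cortex RSP, IL (1.56%) and 4 in Cortex CTXsp (2.2%). The Thalamus had 11 higher (4.11%) and 9 lower (4.5%), and the Hypothalamus 6 higher (3.09%) and 19 lower (4.82%). VL, the label rich in choroid plexus RNA, had 28 genes lower (8.82%) and 5 higher (11.1%). CNU had 5 higher (3.11%) and 8 lower (2.2%), Hippocampus 4 higher (2.87%) and 4 lower (3.1%), and FB 3 higher (9.03%) and 5 lower (1.89%). Cortex AUC had 1 lower (2.09%), and Cortex CTXsp (0.997%) and Cortex OLF (2.75%) had 2 lower each, while no gene was called lower in Cortex PTL (2.28%), Cortex SSp (2.13%) or Cortex RSP, IL (1.49%). The highest mean of a gene lay most often in the Thalamus (15 of 56 genes) and the lowest most often in VL (29 of 56). The same counts over all genes are not given here. The highest region was the same in all 4 sections for 7 genes. For 5 genes its lowest section lay above the highest section of the second region.

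**Figure D1:**
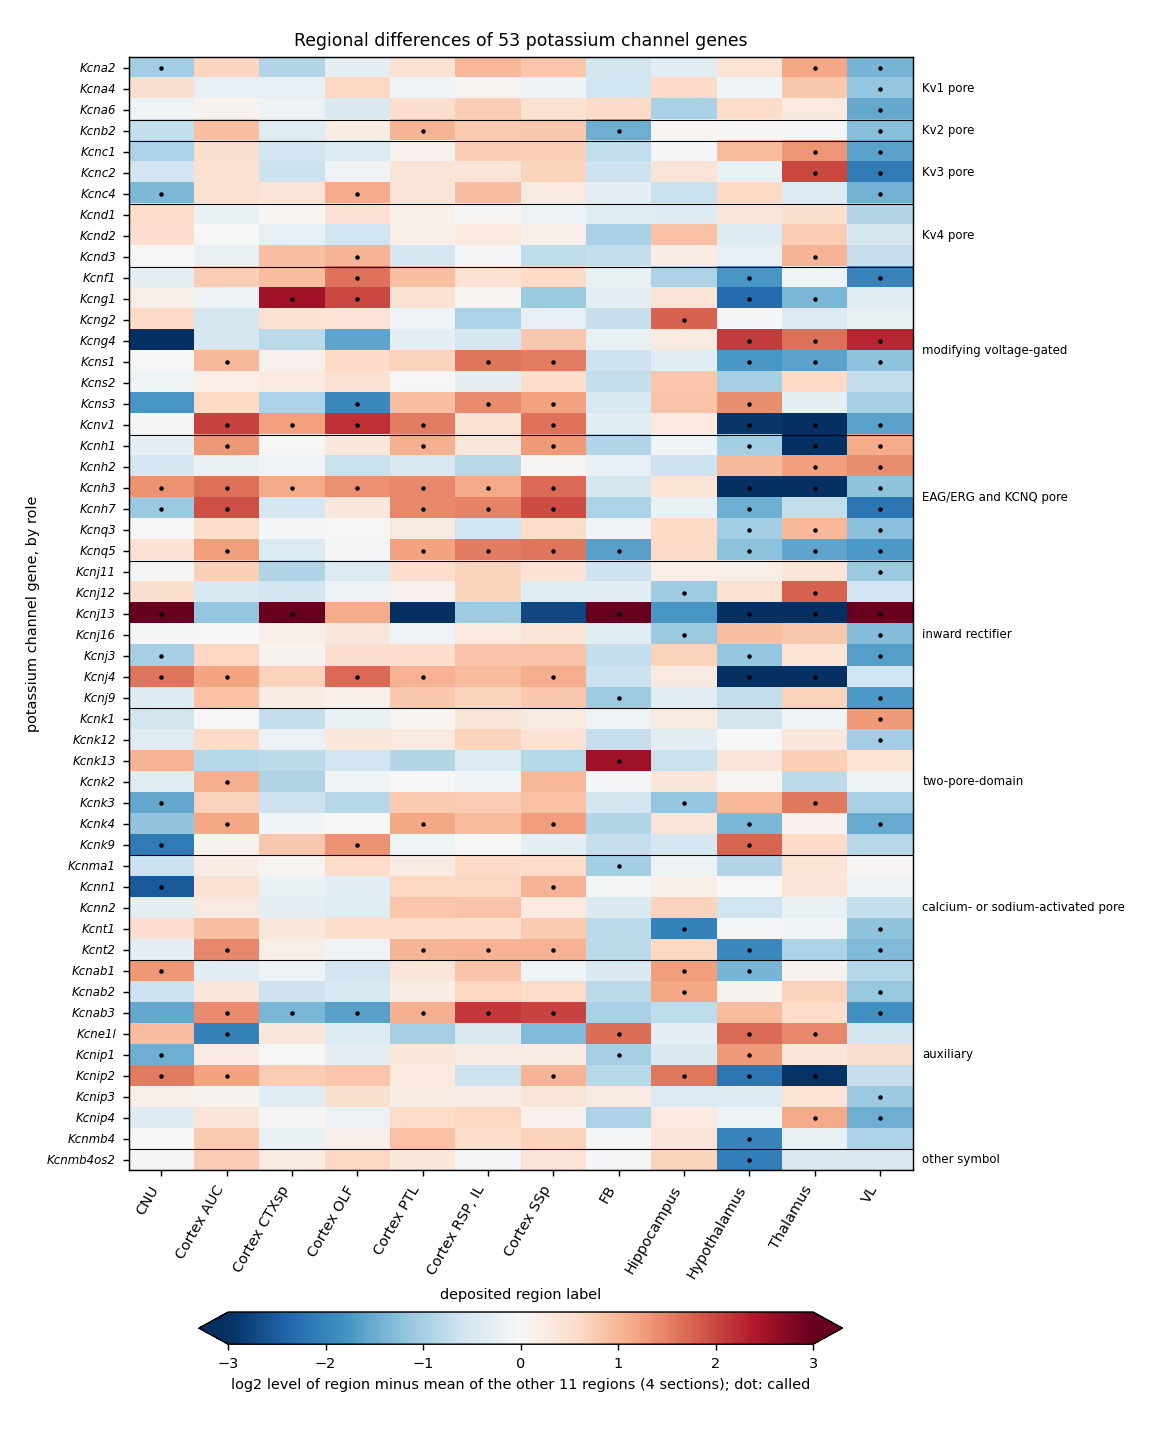
Log2 level of potassium channel genes of at least 5 CPM (rows, by role; not every one is shown) in each of 12 region labels (columns) minus the mean of the other 11 regions, over 4 sections; black dots mark calls and the colour scale is limited to ±3. Dots for a higher level gather in the cortical labels and the Thalamus, and most dots in the VL column are for a lower level.

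Among Kv3 pores, which close quickly and allow fast firing, Kcnc2 and Kcnc1 were highest in the Thalamus. In lists of 4 values the sections stand in the order 5xFAD-Dp16, 5xFAD, Dp16 and wild-type, here and in the following paragraphs on regions. Kcnc2 was at 167, 176, 119.7 and 277 CPM in the Thalamus, against a mean of 43.2, 46.8, 44.7 and 53.5 CPM over the other regions (log2 2.00 ± 0.10 SE, adjusted p = 9.9e-21). Every thalamic value lay above every mean of the other regions, and the wild-type section was the highest. Kcnc1 was at 125, 154, 134 and 236 CPM there, against 53.5, 71.7, 70.0 and 75.7 CPM (log2 1.31 ± 0.11 SE, adjusted p = 1.2e-13). Kcnc4 was highest in Cortex OLF, at 92.1, 88.3, 103 and 79.1 CPM, against 40.9, 42.6, 56.3 and 43.9 CPM (log2 1.11 ± 0.13 SE, adjusted p = 4.5e-09).

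The Kv1 pore Kcna2, which sits along axons and limits spike initiation, followed the same direction: it was at 94.9, 119.7, 98.5 and 161 CPM in the Thalamus, against 44.7, 63.3, 56.1 and 59.8 CPM in the other regions (log2 1.16 ± 0.10 SE, adjusted p = 6.4e-13). Kcna4 and Kcna6 had no call of a higher level and were lower in VL. The Kv1 partners of the Kcnab family differed from each other. Kcnab3 was at 99.5, 95.5, 99.8 and 79.8 CPM in Cortex RSP, IL and 50.7, 103, 57.4 and 147 CPM in Cortex SSp, against 21.9, 33.5, 28.5 and 36.5 CPM outside Cortex RSP, IL (log2 2.12 ± 0.25 SE, adjusted p = 2.3e-08). It was lower in Cortex OLF, at 9.08, 7.82, 9.49 and 6.01 CPM (log2 -1.63 ± 0.31 SE, adjusted p = 4.3e-05). Kcnab1 and Kcnab2 were instead higher in the Hippocampus, by log2 1.26 ± 0.12 SE, adjusted p = 3.7e-11 and log2 1.16 ± 0.12 SE, adjusted p = 5.4e-11. Kcnab1 was also higher in CNU, with a log2 difference of 1.31.

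Kv2 pores carry much of the slow delayed current of cell bodies. Kcnb2 was higher in Cortex PTL and lower in FB and VL. The modifying subunits that join Kv2 differed between regions each in its own way. Kcnv1 was at 65.1, 63.2, 80.0 and 69.4 CPM in Cortex OLF and 60.6, 71.2, 61.2 and 69 CPM in Cortex AUC, against means of 22.3, 23, 26.2 and 28.4 CPM outside Cortex OLF. In the Thalamus it was low, at 0.859, 0.772, 1.70 and 0.713 CPM (log2 -4.52 ± 0.27 SE, adjusted p = 2.6e-18), and in the Hypothalamus its log2 difference was -2.93.

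Kcng1 was at 16, 42, 43.6 and 51.2 CPM in Cortex CTXsp, against 5.87, 6.82, 9.14 and 10.6 CPM in the other regions (log2 2.52 ± 0.19 SE, adjusted p = 1.7e-13). It was also higher in Cortex OLF, by log2 2.00 ± 0.18 SE, adjusted p = 6.5e-12, and the 5xFAD-Dp16 section was lowest in both labels. Kcng2, another subunit of that family, was at 33.4, 41.2, 43.8 and 50.1 CPM in the Hippocampus, against 11, 12.8, 16 and 11.5 CPM (log2 1.78 ± 0.21 SE, adjusted p = 3.6e-09), and the groups did not overlap. Kcnf1 was higher in Cortex OLF, at 89.1, 89.7, 95.7 and 112 CPM (log2 1.62 ± 0.13 SE, adjusted p = 6.2e-14). Kcns1 was higher in Cortex RSP, IL, at 43.1, 32.4, 38.7 and 26.8 CPM (log2 1.61 ± 0.19 SE, adjusted p = 8.2e-09), and Kcns3 was lower in Cortex OLF, at 1.51, 1.85, 1.36 and 1 CPM (log2 -1.93 ± 0.37 SE, adjusted p = 4.1e-05).

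Kcng4 was called higher in the Hypothalamus, the Thalamus and VL, but the sections did not share the pattern. It was at 1.08, 46.6, 0.706 and 20.5 CPM in VL and 9.39, 18.5, 21.5 and 1.08 CPM in the Hypothalamus. The 5xFAD and wild-type sections were high in VL, whereas the wild-type section was the lowest in the Hypothalamus. Habenula markers in VL were at 12.5, 1099, 8.48 and 436 CPM, high in the same 5xFAD and wild-type sections; their part in the result was not tested. Without the 5xFAD section the VL difference was 0.74 (adjusted p = 0.45), and without the wild-type section the thalamic one was 1.11 (adjusted p = 0.14).

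The fast-inactivating Kv4 current is built from Kcnd pores with Kcnip proteins. Kcnd2 had no call, and Kcnd3 was higher in the Thalamus (log2 1.01 ± 0.12 SE, adjusted p = 3.4e-09) and Cortex OLF (log2 1.01 ± 0.13 SE, adjusted p = 1.7e-08). Kcnip2 was at 215, 217, 247 and 244 CPM in the Hippocampus, against 105, 87, 105 and 122 CPM elsewhere (log2 1.58 ± 0.15 SE, adjusted p = 1.0e-11). In CNU it was at 234, 129.7, 194 and 288 CPM (log2 1.56 ± 0.19 SE, adjusted p = 2.9e-08), and in the Thalamus it was the reverse, at 15.5, 12.6, 13.4 and 14.8 CPM (log2 -2.96 ± 0.23 SE, adjusted p = 2.3e-14). Kcnip4 was higher in the Thalamus, at 111, 131, 90.0 and 146 CPM, against 50.8, 50.2, 55.6 and 58.8 CPM (log2 1.14 ± 0.10 SE, adjusted p = 3.0e-13). Kcnip1 was higher in the Hypothalamus, at 54.5, 54.7, 57.7 and 83.1 CPM (log2 1.28 ± 0.21 SE, adjusted p = 1.5e-06), and Kcnip3 had only a call of a lower level, in VL.

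**Figure D2:**
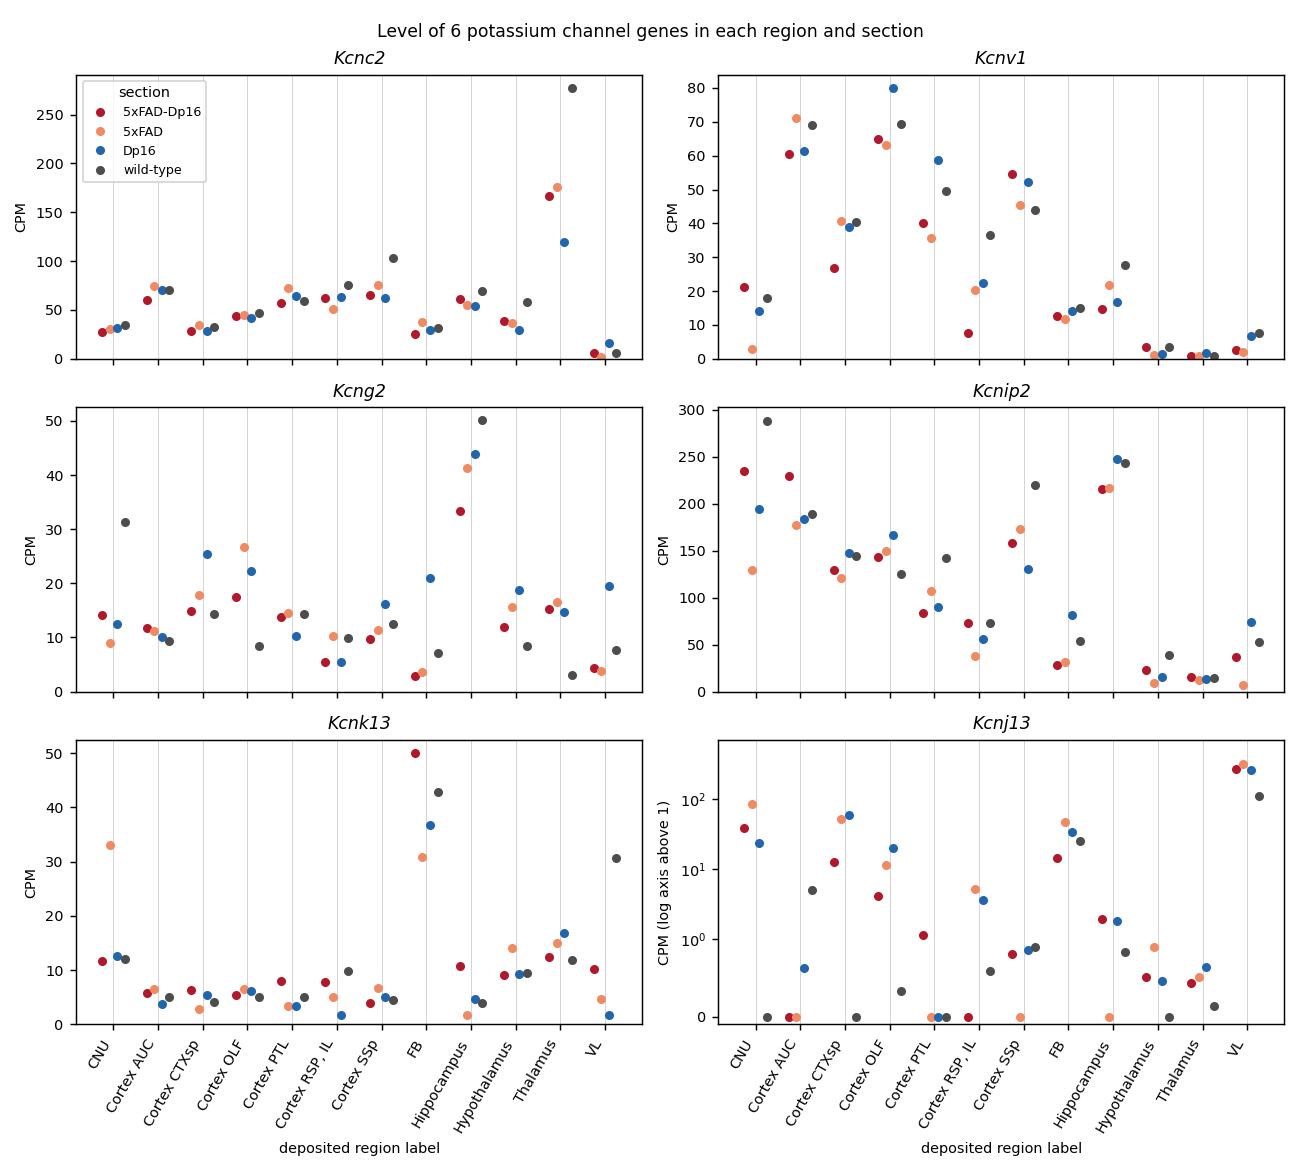
CPM of Kcnc2, Kcnv1, Kcng2, Kcnip2, Kcnk13 and Kcnj13 in each of 12 region labels, 1 point per section; the Kcnj13 panel has a logarithmic axis above 1 CPM. The 4 thalamic Kcnc2 points lie between 119.7 and 277 CPM, the Kcnk13 points in FB between 30.9 and 50.004 CPM, and the wild-type section has no Kcnj13 count in CNU.

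In the Kcnh and Kcnq group, the ELK channel Kcnh3 and the ERG channel Kcnh7 were called higher in several cortical labels, and Kcnh3 in CNU as well. Kcnh3 was at 45, 80.5, 80.5 and 85.2 CPM in Cortex SSp, against 28.5, 32.4, 36 and 45.5 CPM elsewhere (log2 1.71 ± 0.15 SE, adjusted p = 2.1e-12). In the Thalamus it was at 1.29, 1.80, 1.70 and 1.71 CPM (log2 -4.30 ± 0.23 SE, adjusted p = 5.7e-20) and in the Hypothalamus its log2 difference was -4.16. Kcnh7 was at 60.6, 67.1, 60.6 and 66.2 CPM in Cortex AUC, against 19.9, 20.3, 21.6 and 25.7 CPM (log2 1.94 ± 0.11 SE, adjusted p = 2.3e-17). The EAG channel Kcnh1 was also low in the Thalamus, at 1.93, 1.03, 2.97 and 1.43 CPM (log2 -3.16 ± 0.20 SE, adjusted p = 1.4e-17), whereas the ERG channel Kcnh2 was higher there, at 50.2, 47.6, 44.6 and 68.4 CPM (log2 1.24 ± 0.12 SE, adjusted p = 3.3e-12), and in VL (log2 1.40 ± 0.15 SE, adjusted p = 1.4e-10). KCNQ subunits make the M current, which muscarinic receptors close. Kcnq5 was higher in Cortex SSp and Cortex RSP, IL, with log2 differences of 1.61 and 1.56, and lower in FB, at 7.21, 4.03, 6.37 and 9.49 CPM (log2 -1.63 ± 0.21 SE, adjusted p = 1.7e-08). Kcnq3 was higher in the Thalamus, at 67.4, 77.8, 57.3 and 99.7 CPM, against 30.9, 36, 35.8 and 46 CPM (log2 1.00 ± 0.09 SE, adjusted p = 1.8e-12).

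Among inward rectifiers, Kcnj4 and Kcnj12, both strong rectifiers of the Kir2 group, differed in the direction of their thalamic calls. Kcnj4 was at 82.5, 86.6, 103 and 95.5 CPM in Cortex OLF and 73.8, 57.3, 65.8 and 106 CPM in CNU, and at 0.859, 0.515, 0.424 and 5.70 CPM in the Thalamus (log2 -4.19 ± 0.26 SE, adjusted p = 1.4e-17). Kcnj12 was at 12, 13.6, 9.55 and 20.1 CPM in the Thalamus, against 4.53, 3.41, 3.04 and 4.76 CPM elsewhere (log2 1.78 ± 0.21 SE, adjusted p = 1.7e-09). The subunits of the G-protein-gated channel, Kcnj3 and Kcnj9, had no call of a higher level and were lower in VL, with log2 differences of -1.64 and -1.72. Kcnj11, the pore of the ATP-sensitive channel, and Kcnj16 were also lower in VL.

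Kcnj13 is the inward rectifier of choroid plexus epithelium. It was at 266, 319, 258 and 110.0 CPM in VL, against 6.78, 18.3, 13.2 and 3.01 CPM over the other regions (log2 6.79 ± 0.29 SE, adjusted p = 1.0e-23). Calls of a higher level in CNU, FB and Cortex CTXsp were made on the log scale against labels where the gene was near 0. In CNU it was at 38.7, 84.4, 23.5 and 0 CPM, where choroid plexus markers were at 38659, 74818, 21438 and 1837 CPM. In FB it was at 14.4, 46.6, 34.1 and 25.4 CPM, with choroid plexus markers at 8314, 33362, 28499 and 25657 CPM; the part of choroid plexus RNA in these calls was not tested.

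Tandem-pore channels carry background leak. Kcnk13 had its highest mean in FB, at 50.004, 30.9, 36.7 and 42.8 CPM, against means of 8.32, 9.06, 6.45 and 9.22 CPM over the other regions (log2 2.53 ± 0.19 SE, adjusted p = 5.9e-15). Every FB value lay above every mean of the other regions. FB was the highest single label in 3 sections but not in all. Its values did not all lie above those of the second label, CNU (mean 17.4 CPM). Microglia markers in FB were at 2385, 1901, 689.9 and 846 CPM. Oligodendrocyte and astrocyte markers also had their highest mean in FB, at 21208 and 977 CPM. The part of any of these markers in the level of Kcnk13 was not tested. Of the acid-sensitive channels, Kcnk3 was at 28.3, 28.6, 30.8 and 39.9 CPM in the Thalamus (log2 1.58 ± 0.14 SE, adjusted p = 3.1e-13), while Kcnk9 was at 41.8, 45.2, 39.2 and 44.1 CPM in the Hypothalamus, against 13.3, 14.9, 14.6 and 17.1 CPM (log2 1.76 ± 0.15 SE, adjusted p = 1.3e-13), and was also called higher in Cortex OLF. Kcnk1 was higher in VL, at 159, 182, 166 and 133 CPM (log2 1.28 ± 0.10 SE, adjusted p = 8.4e-15). The stretch-sensitive channels Kcnk2 and Kcnk4 were higher in cortical labels, Kcnk2 in Cortex AUC (log2 1.07 ± 0.19 SE, adjusted p = 2.3e-05) and Kcnk4 in Cortex PTL (log2 1.16 ± 0.22 SE, adjusted p = 9.4e-05).

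Sodium-activated Kcnt1 was low in the Hippocampus, at 7.85, 4.25, 6.57 and 8.82 CPM, against 24.3, 32.2, 33.5 and 36.9 CPM elsewhere (log2 -2.03 ± 0.16 SE, adjusted p = 2.6e-14), and Kcnt2 was higher in Cortex AUC (log2 1.44 ± 0.17 SE, adjusted p = 1.1e-08). The SK channel Kcnn1 was low in CNU, at 1.17, 0, 1.57 and 2.41 CPM (log2 -2.52 ± 0.52 SE, adjusted p = 3.1e-04), on 4 counts in all. The BK pore Kcnma1 was lower in FB, at 10.6, 11.7, 21 and 20.8 CPM (log2 -1.01 ± 0.19 SE, adjusted p = 1.5e-05). Its neuronal partner Kcnmb4 was low in the Hypothalamus, at 13.2, 8.97, 12.4 and 50.3 CPM, against 76.3, 87.2, 85.5 and 99.3 CPM (log2 -2.00 ± 0.21 SE, adjusted p = 9.3e-11). Kcnmb4os2, which overlaps it in the annotation, was lower in the same label by log2 -2.08 ± 0.29 SE, adjusted p = 9.4e-08; how the authors' counting used strand is not given, so that overlapping pairs, including Kcnip1 with Kcnmb1 and Kcnd3 with Kcnd3os, stay uncertain. The auxiliary Kcne1l was higher in the Hypothalamus (log2 1.69 ± 0.26 SE, adjusted p = 8.0e-07) and FB (log2 1.68 ± 0.30 SE, adjusted p = 6.1e-06).

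Of the 30 genes under 5 CPM, several still peaked in 1 label. Kcna5 had 28, 3, 17 and 18 counts in CNU, or 32.8, 9.05, 26.6 and 21.7 CPM, while its mean over whole sections was 2.84 CPM. Kcnn3, an SK channel, was at 8.80, 8.24, 8.70 and 16.1 CPM in the Thalamus, and Kcne4 at 4.29, 4.63, 3.18 and 9.41 CPM there. Both were highest in the wild-type section. Kcnh4 was at 14.1, 0, 15.7 and 9.66 CPM in CNU, where 0 counts in the 5xFAD section allow up to 9.05 CPM (3 counts of the region's total). Kcnj8, a pore-forming subunit of the vascular ATP-sensitive channel, was highest in FB, at 5.77, 5.38, 4.12 and 9.49 CPM. These rest on 12, 12, 11 and 37 counts. Over whole sections Kcnj8 was at 4.25, 4.30, 3.63 and 5.09 CPM, so its peak was slight. Kcnn4, known from microglia and other immune cells, had 15, 8, 20 and 8 counts per section. Its highest label was VL, with 5, 1, 6 and 2 of these counts, which are few and were not tested.

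Other genes of membrane excitability, a list of 48 sodium, calcium and HCN channels, pumps and partners of which 47 were measured and 44 tested, gave a frame for these counts. In the Thalamus 7 of the 44 were higher (4.11% of all genes), among them Hcn4 at 21.5 CPM against 1.84 CPM elsewhere, the T-type channel Cacna1g at 85.5 against 18.2 CPM, and Hcn2 at 272 against 101 CPM. In VL 16 were lower (8.82% of all genes) and 2 higher (11.1%), and in FB 7 were lower (1.89%). In all, 33 of 44 (75.0%) were called in at least 1 region, against 52 of 56 (92.9%) of the potassium channel genes and 35.4% of all genes. Median log2 differences of the potassium channel genes were 0.56 in Cortex SSp, 0.35 in the Thalamus, -0.62 in FB and -1.01 in VL, against medians of all genes between -0.02 and 0.02.

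Of the 56 potassium channel genes of at least 5 CPM, none passed 1.5-fold the same way in both pairs of sections differing by Dp16. Nor did any in both pairs differing by 5xFAD. Under 5 CPM, Kcne4 did so for both and Kcnk6 for 5xFAD, as described further below. The Dp16 effect was read from 5xFAD-Dp16 over 5xFAD and from Dp16 over wild-type, and the 5xFAD effect from 5xFAD-Dp16 over Dp16 and from 5xFAD over wild-type; the 2 pairs of an effect share no section. For the Dp16 effect 0 of 56 genes were higher and 0 lower (0.145% of all genes in each direction). For the 5xFAD effect 0 were higher (0.426%) and 0 lower (0.0363%). The 95% intervals given with each ratio between genotypes are exact conditional binomial intervals and cover counting error only. In spots of tissue, fewer cells of a type and less RNA per cell cannot be told apart.

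Levels leaned lower in the sections with Dp16. Relative to the median of all genes, the median log2 ratio of the 56 genes was -0.14 in 5xFAD-Dp16 over 5xFAD and -0.18 in Dp16 over wild-type, and -0.14 and -0.13 when each region was given the same weight in every section. As a mean over spots, in place of summed counts, it was -0.21 and -0.10. In both pairs 34 of 56 genes (60.7%) were below the median of all genes (35 with the same region weights in every section), against 32.3% of all genes (31.6%), and Kcns1, Kcnc4, Kcna6 and Kcnip2 were above it (32.3%). The counting interval was below 0 in both pairs for 23 genes (22.1% of all genes) and above 0 for none (6.18%). At a log2 difference of at least 0.32, 5 genes were lower in both pairs (2.64%), namely Kcna2, Kcnc1, Kcng4, Kcnma1 and Kcne1l, and none was higher (0.716%). With the same region weights in every section 2 genes were past 0.32 in both pairs (1.87% of all genes), Kcnma1 and Kcnk3. Neuron markers summed to 2381 and 2367 CPM in the 5xFAD-Dp16 and Dp16 sections, against 2613 and 3117 CPM in the 5xFAD and wild-type sections; their part in this was not tested.

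Kcnma1, the BK pore, was at 27.2 CPM in the 5xFAD-Dp16 section, against 38.3 CPM in the 5xFAD section (log2 -0.49, -0.62 to -0.36), and at 30.3 CPM in the Dp16 section, against 43.1 CPM in the wild-type section (log2 -0.51, -0.63 to -0.39). With the same region weights in every section the ratios were -0.52 and -0.46. Kcnc1 was at 65.6 CPM in 5xFAD-Dp16, against 86.6 CPM in 5xFAD (log2 -0.40, -0.48 to -0.32), and at 80.1 CPM in Dp16, against 106.6 CPM in wild-type (log2 -0.41, -0.49 to -0.34); with region weights the ratios were -0.44 and -0.27. Kcna2 was at 52.1 CPM in 5xFAD-Dp16, against 68.6 CPM in 5xFAD (log2 -0.40, -0.49 to -0.30), and at 60.4 CPM in Dp16, against 79.7 CPM in wild-type (log2 -0.40, -0.49 to -0.32); with region weights they were -0.46 and -0.29. For Kcnma1, Kcnc1 and Kcna2 both sections with Dp16 were below both sections without it. These genes were picked for being lower in both pairs, so this order is no separate support. The share of all genes with the same order is not given here. Kcng4 had log2 ratios of -0.80 (-1.13 to -0.47) in 5xFAD-Dp16 over 5xFAD and -0.35 (-0.64 to -0.07) in Dp16 over wild-type, and Kcne1l of -0.36 (-0.65 to -0.06) and -0.60 (-0.90 to -0.31). With region weights these became -0.76 and -0.24 for Kcng4 and -0.30 and -0.53 for Kcne1l. Without the spots labelled Hypothalamus the Kcng4 ratios were -0.82 and -1.41. Habenula markers summed to 35.5 and 28.1 CPM in the 5xFAD-Dp16 and Dp16 sections, against 103 and 80.4 CPM in the 5xFAD and wild-type sections. Their part in the Kcng4 ratios was not tested.

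A 1.5-fold difference in 1 pair alone was seen for 7 genes lower in Dp16 over wild-type (Kcnk3, Kcnc2, Kcnj12, Kcns2, Kcnq3, Kcnk4 and Kcne1l; 3.11% of all genes) and 2 lower in 5xFAD-Dp16 over 5xFAD (Kcng1 and Kcng4; 0.798%). With the same region weights in every section only Kcnc2 (log2 -0.73) and Kcnj12 (-0.68) of the 7 stayed past 1.5-fold in Dp16 over wild-type (2.09%), and the other 5 lay between -0.41 (Kcnk3) and -0.55 (Kcnk4). In 5xFAD-Dp16 over 5xFAD, Kcng4 and Kcnj13 were lower past it with these weights (1.11%), and Kcng1 was at -0.57. Kcnj13 was higher in Dp16 over wild-type (2.02%), and no gene was higher in 5xFAD-Dp16 over 5xFAD (0.625%). The lowest ratio was that of Kcnc2, at 59.5 CPM in 5xFAD-Dp16, against 66.5 CPM in 5xFAD (log2 -0.16, -0.25 to -0.07), and at 52.6 CPM in Dp16, against 100.1 CPM in wild-type (log2 -0.93, -1.02 to -0.84). Kcng2 differed in sign between the pairs, with log2 -0.36 (-0.55 to -0.18) in 5xFAD-Dp16 over 5xFAD and 0.57 (0.39 to 0.75) in Dp16 over wild-type; that difference was not tested. Kcnc4 was at 51.4 CPM in 5xFAD-Dp16, against 52.6 CPM in 5xFAD, and at 62.7 CPM in Dp16, against 46.3 CPM in wild-type.

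The Thalamus, where many of these genes are highest, was singled out after values had been seen. Relative to all genes, the median log2 ratio of the 56 genes there was -0.04 in 5xFAD-Dp16 over 5xFAD and -0.45 in Dp16 over wild-type, and -0.01 in 5xFAD-Dp16 over Dp16 and -0.37 in 5xFAD over wild-type. Both large values set a section against the same wild-type section. Kcnc2 in the Thalamus had a log2 ratio of -0.08 (-0.23 to 0.07) in 5xFAD-Dp16 over 5xFAD and -1.21 (-1.35 to -1.08) in Dp16 over wild-type. Of the 4 thalamic markers, Prkcd had a log2 ratio of -0.32 in 5xFAD-Dp16 over 5xFAD and -1.44 in Dp16 over wild-type. Rora had ratios of -0.30 and -1.19. All 4 together summed to 1233, 1455, 922 and 1939.6 CPM in the 5xFAD-Dp16, 5xFAD, Dp16 and wild-type sections. Markers of inhibitory neurons in the same label summed to 351, 356, 479 and 1112 CPM in the 5xFAD-Dp16, 5xFAD, Dp16 and wild-type sections. The part of these markers in the thalamic values was not tested.

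**Figure D3:**
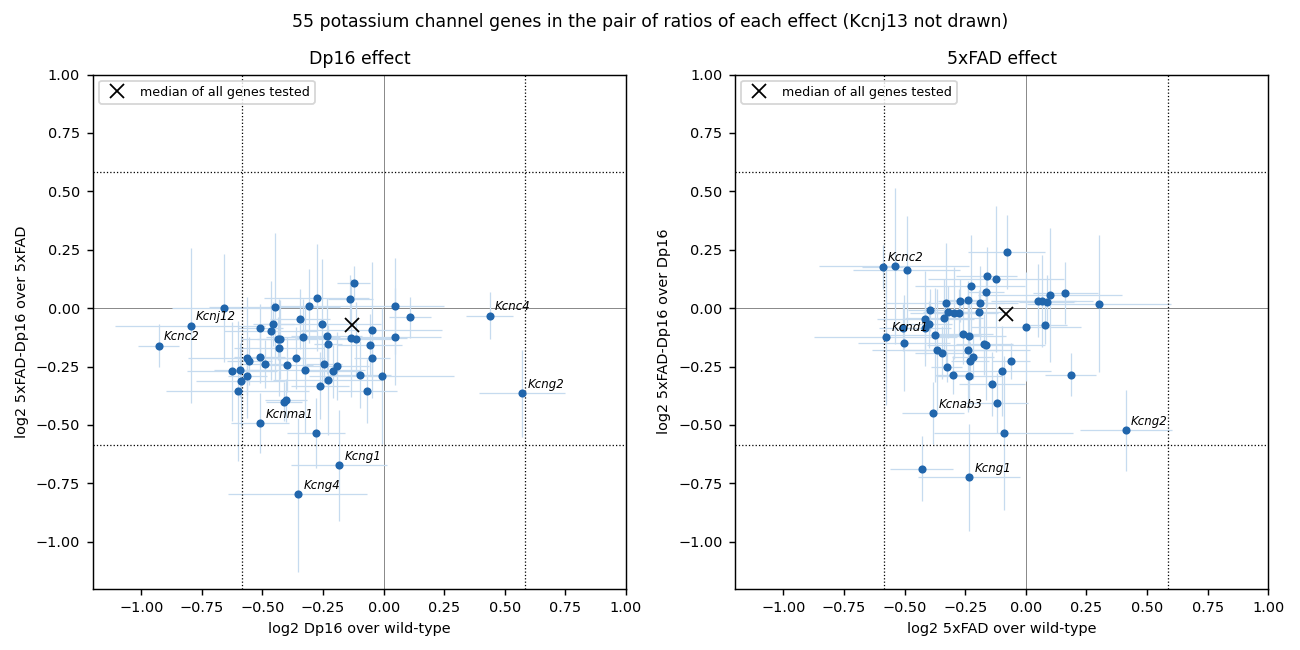
Log2 ratios of 55 potassium channel genes, Dp16 effect at left (x, Dp16 over wild-type; y, 5xFAD-Dp16 over 5xFAD) and 5xFAD effect at right (x, 5xFAD over wild-type; y, 5xFAD-Dp16 over Dp16); bars are 95% counting intervals, dotted lines 1.5-fold, the cross the median of all genes, and Kcnj13 is not drawn. No gene lies past both dotted lines in the lower left or upper right corner of either panel.

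For the 5xFAD effect the median log2 ratios of the 56 genes, relative to all genes, were -0.06 in 5xFAD-Dp16 over Dp16 and -0.15 in 5xFAD over wild-type. With the same region weights in every section they were -0.12 and -0.11, and as a mean over spots -0.18 and -0.053, so the order of the pairs depended on the weighting. The counting interval was below 0 in both pairs for 11 genes (11.7% of all genes) and above 0 for none (4.61%), and 27 genes lay below the all-gene median in each pair (28.9%), or 36 with the same region weights in every section (29.8%). At a log2 difference of at least 0.32, 2 were lower in both (0.843%) and none higher (0.897%). Kcnab3 was at 23.6 CPM in 5xFAD-Dp16, against 32.2 CPM in Dp16 (log2 -0.45, -0.58 to -0.32), and at 29.6 CPM in 5xFAD, against 38.6 CPM in wild-type (log2 -0.38, -0.51 to -0.25). With the same region weights in every section its ratios were -0.52 (lower in 10 of 12 regions) and -0.11 (lower in 5 of 12), so the difference in 5xFAD over wild-type was no longer past 0.32. With those weights 4 other genes were past 0.32 in both pairs (1.23% of all genes), namely Kcnb2, Kcng1, Kcnh3 and Kcnk12. A 1.5-fold difference in 1 pair alone was seen for genes that include Kcng1 and Kcnj13, lower in 5xFAD-Dp16 over Dp16 (1.02%), and for Kcnc2 lower (1.14%) and Kcnj13 higher (1.92%) in 5xFAD over wild-type. With region weights the Kcnc2 ratio was -0.42, inside 1.5-fold.

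Some genes under 5 CPM differed more. Kcnk6, a tandem-pore channel, had 48 counts in 5xFAD-Dp16, against 16 in Dp16 (log2 1.35, 0.50 to 2.26), and 41 in 5xFAD, against 28 in wild-type (log2 0.95, 0.22 to 1.70). Microglia markers summed to 934 CPM in 5xFAD-Dp16, against 363 CPM in Dp16, and to 1064 CPM in 5xFAD, against 432 CPM in wild-type, and their part in the Kcnk6 counts was not tested. Kcne4, an auxiliary subunit, had 37 and 40 counts in 5xFAD-Dp16 and 5xFAD, against 48 in Dp16 and 96 in wild-type. Scaled to section totals, Kcne4 was at 1.01, 1.54, 1.55 and 2.79 CPM in the 5xFAD-Dp16, 5xFAD, Dp16 and wild-type sections. The wild-type section was thus the highest and the 5xFAD-Dp16 section the lowest. Kcne4 is highest in the Thalamus.

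Kcnj13 was at 17.7, 23.9 and 36.0 CPM in the 5xFAD-Dp16, 5xFAD and Dp16 sections and at 6.05 CPM in the wild-type section. Choroid plexus markers summed to 14722, 19282, 32479 and 6882 CPM in the same order, and Kcnj13 per 1000 CPM of these markers was 1.20, 1.24, 1.11 and 0.880 CPM. Labels of VL covered 95, 40, 102 and 52 spots. The part of the amount of choroid plexus in each section in these values was not tested.

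The excitability list leaned the same way. For the Dp16 effect 32 of 44 were below the all-gene median in each pair (32.3% of all genes), 30 had intervals below 0 in both (22.1%), and Lrrc55, an auxiliary subunit of BK channels, was 1.5-fold lower in both (0.145%), with log2 -0.95 (-1.24 to -0.67) in 5xFAD-Dp16 over 5xFAD and -1.05 (-1.31 to -0.79) in Dp16 over wild-type. Lrrc55 was called higher in VL, at a mean of 31.0 CPM against 7.43 CPM elsewhere. Habenula markers summed to 35.5 and 28.1 CPM in the 5xFAD-Dp16 and Dp16 sections, against 103 and 80.4 CPM in the 5xFAD and wild-type sections. Their part in the Lrrc55 ratios was not tested. For the 5xFAD effect 31 of 44 were below the all-gene median in each pair (28.9%), and none passed 1.5-fold in either direction.

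Plaque marks were deposited for the 5xFAD-Dp16 and 5xFAD sections. Spots marked as plaque were set against unmarked spots of the same region, over regions with at least 10 of each (380 plaque, 718 neighbour and 1556 unmarked spots in 11 regions of 5xFAD-Dp16; 310, 597 and 1234 spots in 10 regions of 5xFAD). Of the 56 genes, none was 1.5-fold higher at plaques in both sections (1.06% of all genes), and Kcnj13 alone was lower in both (1.02%). Genes under 5 CPM that passed it are given further below. The median log2 ratio of the 56 genes, plaque over unmarked, was 0.06 in 5xFAD-Dp16 and -0.04 in 5xFAD, against 0.0039 and -0.03 for all genes. Microglia markers at plaques summed to 2145 CPM, against 1079 CPM at neighbours and 757 CPM in unmarked spots of 5xFAD-Dp16, and to 2333, 1263 and 768 CPM in 5xFAD.

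Kcnj13 was at 1.35, 3.92 and 2.39 CPM at plaque, neighbour and unmarked spots of 5xFAD-Dp16 (log2 -0.83, -2.05 to 0.40) and at 6.25, 7.21 and 11.4 CPM at plaque, neighbour and unmarked spots of 5xFAD (log2 -0.86, -1.51 to -0.22). These are 6 and 22 counts at plaques, and choroid plexus markers were also lower there, at 1520, 3147 and 1741 CPM at plaque, neighbour and unmarked spots of 5xFAD-Dp16 and 7343, 5671 and 8173 CPM in 5xFAD; their part was not tested. Counting intervals were above 0 in both sections for Kcng2 and Kcnab2 (3.65% of all genes) and below 0 in both for Kcnip2 (2.7%). Kcng2 was at 20.5, 14.2 and 12.4 CPM at plaque, neighbour and unmarked spots of 5xFAD-Dp16 (log2 0.73, 0.36 to 1.09) and at 21, 17.2 and 15.4 CPM at plaque, neighbour and unmarked spots of 5xFAD (log2 0.45, 0.05 to 0.84). Kcnab2 was at 146, 139 and 123 CPM at plaque, neighbour and unmarked spots of 5xFAD-Dp16 (log2 0.24, 0.10 to 0.38) and at 140.3, 136 and 118 CPM at plaque, neighbour and unmarked spots of 5xFAD (log2 0.26, 0.10 to 0.41). Both were highest at plaque spots and lowest in unmarked spots of each section, and Kcnab2 was above unmarked spots in 8 of 11 and 5 of 10 regions. Kcnip2 was at 78.4, 88.5 and 111 CPM at plaque, neighbour and unmarked spots of 5xFAD-Dp16 (log2 -0.50, -0.67 to -0.32) and at 68.5, 62.8 and 85.4 CPM at plaque, neighbour and unmarked spots of 5xFAD (log2 -0.32, -0.52 to -0.12). All 3 of these genes had their highest regional mean in the Hippocampus.

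Other genes at the ends of the range had intervals that held 0 in at least 1 section. Kcns3, Kcng1 and Kcng4, all modifying subunits, had log2 ratios of 0.50, 0.50 and 0.42 in 5xFAD-Dp16 and of 0.41, 0.41 and 0.41 in 5xFAD. Kcnj16 was at 9.91, 9.57 and 14.7 CPM at plaque, neighbour and unmarked spots of 5xFAD-Dp16 (log2 -0.57, -1.06 to -0.07) and at 13.9, 13.8 and 16.7 CPM at plaque, neighbour and unmarked spots of 5xFAD (log2 -0.26, -0.73 to 0.20). Kcnj16 is the partner of the main astrocyte inward rectifier. Kcnma1 was at 25.4, 29.4 and 30.0 CPM at plaque, neighbour and unmarked spots of 5xFAD-Dp16 (log2 -0.24, -0.55 to 0.08) and at 29.5, 37.6 and 41.1 CPM at plaque, neighbour and unmarked spots of 5xFAD (log2 -0.48, -0.79 to -0.17). Kcnb2 had log2 ratios of -0.33 in 5xFAD-Dp16 and -0.34 in 5xFAD. With genes of 1 to 5 CPM included, the strong rectifier Kcnj2 was 1.5-fold higher at plaques in both sections (2.08% of all genes at that filter), and Kcna5, Kcnmb1 and Kcnh5 were lower in both beside Kcnj13 (2.6%). Kcna5 had log2 ratios of -0.97 in 5xFAD-Dp16 and -1.52 in 5xFAD, Kcnmb1 of -1.31 and -0.96, and Kcnh5 of -1.09 and -0.83. They rested on 1 to 7 counts at plaques in each section, and their intervals held 0 in both sections. Kcnj2 was at 4.95, 2.96 and 2.84 CPM at plaque, neighbour and unmarked spots of 5xFAD-Dp16 (log2 0.80, 0.04 to 1.56) and at 7.67, 4.39 and 4.33 CPM at plaque, neighbour and unmarked spots of 5xFAD (log2 0.83, 0.13 to 1.52). Kcnj2 rested on 22 and 27 counts at plaques, and these low genes were chosen after their values were seen. Kcnk13 and Kcnk6 had intervals that held 0 in both sections, with log2 ratios of 0.36 and 0.66 in 5xFAD-Dp16 and 0.01 and 0.19 in 5xFAD.

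**Figure D4:**
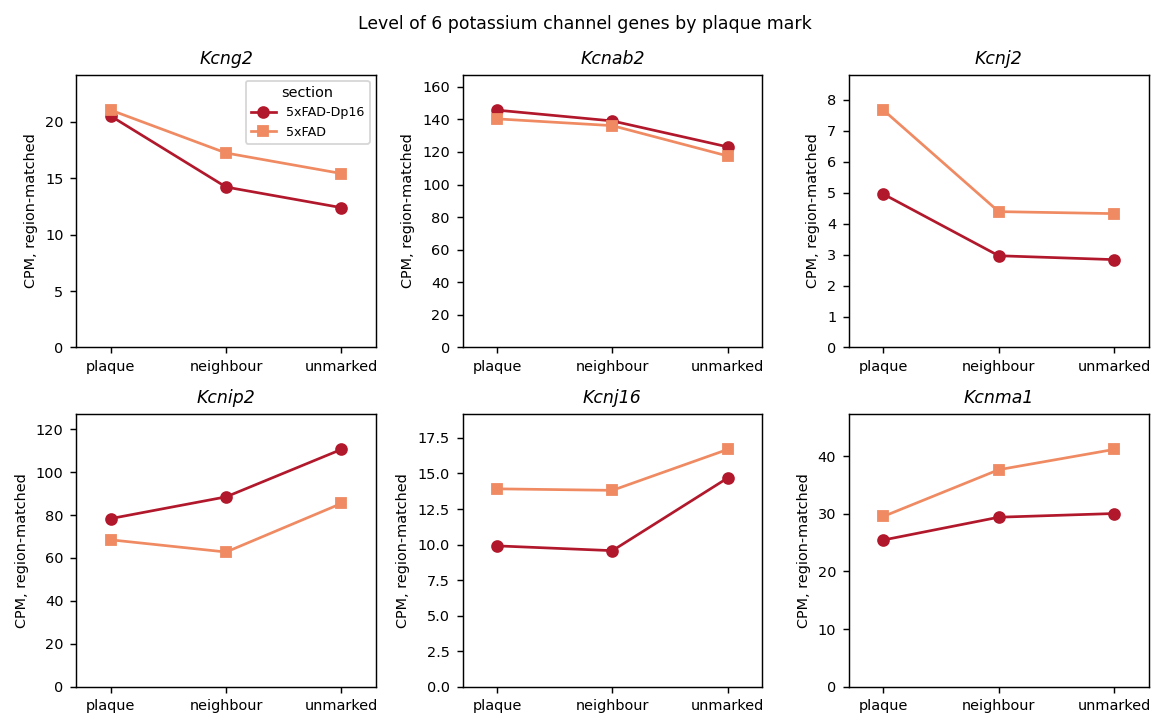
Region-matched CPM of Kcng2, Kcnab2, Kcnj2, Kcnip2, Kcnj16 and Kcnma1 at plaque, neighbour and unmarked spots (x axis) of the 5xFAD-Dp16 section (circles) and the 5xFAD section (squares). Kcng2 stands at 20.5 and 21.0 CPM at plaques, above 12.4 and 15.4 CPM in unmarked spots, and Kcnip2 at 78.4 and 68.5 CPM, below 110.6 and 85.4 CPM.

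In the excitability list 4 of 44 genes had intervals above 0 in both sections (among them Scn1a, Scn4b and Atp1b1; 3.65% of all genes) and 6 below (among them Scn3b, Cacna1c, Cacnb3 and Cacna2d1; 2.7%). None was 1.5-fold higher in both sections (1.06%), and Lrrc55 was 1.5-fold lower in both (1.02%). Lrrc55 rested on 19 and 22 counts at plaques of 5xFAD-Dp16 and 5xFAD. Its log2 ratios were -0.71 (-1.50 to 0.08) and -0.78 (-1.45 to -0.11), so the interval held 0 in 5xFAD-Dp16.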

How the data were processed

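Expression was measured with Visium in 4 brain sections, 1 per genotype, of 10 µm. The authors deposited raw counts of molecules per gene and spot, with region labels, plaque marks and a percent of mitochondrial counts per spot. Space Ranger, Seurat and mm10 are named in the submitters' processing notes, without versions. No source used here says how labels and marks were made.

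Counts were summed per section, or per section and region, and scaled by the total (CPM). Regional tests used edgeR 4.0.16 (R 4.3.3; TMM factors, quasi-likelihood, section as block, Benjamini-Hochberg adjustment) on the 11033 genes that reached 5 CPM on average, and were tested on simulated data. DESeq2 1.42.0 was an alternative. The contrast is a mean of logs, so its sign can differ from that of arithmetic means. P-values rest on the spread of regional sums that is left once the block takes out differences between whole sections. The 4 sections differ in genotype. Genotype ratios have exact conditional binomial (Clopper-Pearson) 95% intervals, and plaque ratios have delta-method intervals from counts weighted by the regions of plaque spots. Both cover counting error only. Python 3.11.15 with scipy 1.17.1 was used.

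Genes, marker lists and the excitability list were chosen with earlier results of these data known. Named genes are the 3 most abundant of each subfamily, the 3 highest and 2 lowest called genes of each region, the 5 highest and 5 lowest of each genotype or plaque comparison with any past 1.5-fold, and a fixed set (Kcnj8, Kcnj13, Kcnk13, Kcnk6, Kcnn4, Kcnma1). Others named were chosen after their values were seen. The alternatives changed normalization, test, filters, thresholds, the block, sections, regions and the matching of spots. Some genes that these rules name are not reported here, but stay in the counts.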

Additional observations from a re-analysis of the deposited data

Results flagged for a closer look

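Kcnj13 was lower in 5xFAD-Dp16 over Dp16, with a log2 ratio of -1.02, and higher in 5xFAD over wild-type, with 1.98, so that the same transgenes went with opposite directions on the 2 backgrounds. This difference was not tested, since each ratio sets 1 section against 1 section. Choroid plexus markers summed to 14722 CPM in 5xFAD-Dp16, against 32479 CPM in Dp16, and to 19282 CPM in 5xFAD, against 6882 CPM in wild-type.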

How the results depend on the processing

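With section left out as a block (no replicate block), 52 genes were called in at least 1 region, with 90 calls of a higher and 77 of a lower level. No paired analysis was possible because each genotype has 1 section, so genotype ratios have no replicate numbers to pair. Leaving out 1 section at a time gave 50 to 53 genes called, 84 to 96 calls higher and 70 to 85 lower. A filter of 20 CPM left 31 genes called, with 56 calls higher and 49 lower, on fewer genes tested (30.3% of all genes called). Without a fold threshold there were 220 calls higher and 170 lower (19.1 and 17% of all tests of a gene in a region), and at 1.5-fold 167 and 142 (8.72 and 7.82%), against 3.76 and 3.09% at 2-fold. Without the Hypothalamus 1 gene, Kcng4, was 1.5-fold lower in both Dp16 pairs (0.154% of all genes). At a log2 difference of 0.32, 5 genes were lower for the Dp16 effect (2.64%) and 2 for the 5xFAD effect (0.843%), and with region weights as well, chosen after seeing the data, 2 (1.87%) and 4 (1.23%). With a filter of 1 CPM, Kcnk6 was the 1 gene higher for the 5xFAD effect (0.836%), and Kcne4 the 1 gene lower for the Dp16 effect (0.351%) and for the 5xFAD effect (0.147%). The mean over spots gave relative medians of -0.21 in 5xFAD-Dp16 over 5xFAD, -0.18 in 5xFAD-Dp16 over Dp16 and -0.053 in 5xFAD over wild-type; the cause was not tested. At plaques 1 gene was higher with unmatched sums (Kcns3; 1.18% of all genes), 1 with at least 30 spots of each kind (Kcng2; 1.36%), 1 with a filter of 1 CPM (Kcnj2; 2.08%) and 4 at a log2 difference of 0.32 (2.7%). Lower at plaques were 4 genes with a filter of 1 CPM (2.6%) and 2 at a log2 difference of 0.32 (4.06%), and 0 with at least 30 spots, with neighbours in place of plaque spots, at 2-fold or without FB and VL. Of the counts and medians under alternatives, 128 stayed within 1.5 times the main count or within the interval of the main median, and 28 moved, which are given above. Of the single-gene values under alternatives, 726 kept direction and side of the threshold, 43 moved, 12 lost their call, and none reversed.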
